A study of Mus musculus with 8 samples.

Results

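The genes described here are the nuclear genes of the mitochondrial respiratory chain, measured in colonic and splenic mononuclear phagocytes of mice. They were chosen by symbol: a gene was a member if its symbol began with Nduf (complex I), Sdha, Sdhb, Sdhc or Sdhd (complex II), Uqcr (complex III), Cox4, Cox5, Cox6, Cox7 or Cox8 (complex IV) or Atp5 (complex V, the ATP synthase), and if a probe set of the array carried that symbol alone. For a gene with more than 1 probe set, the one with the highest mean over the 8 arrays was used. This gave 93 members of 19938 named genes. Complex I had 43 members, complex II 8, complex III 8, complex IV 17 and complex V 17. The symbols also caught 12 genes whose products are not subunits, mostly assembly factors (Ndufaf1 to Ndufaf7 and Sdhaf1 to Sdhaf4), which left 81 subunits.

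The respiratory chain sits in the inner mitochondrial membrane. Complex I takes electrons from NADH and complex II takes them from succinate, which makes complex II an enzyme of the TCA cycle as well. Both pass them through ubiquinone to complex III and on by cytochrome c to complex IV, which reduces oxygen. Complexes I, III and IV pump protons, and complex V uses the proton gradient to make ATP. Most subunits are encoded in the nucleus and a few core ones in mitochondrial DNA, and only nuclear genes were measured here. In macrophages the chain is known for more than energy supply, since succinate oxidation and electron flow shape inflammatory signalling.

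A FACSAria sorter was used to isolate the cells from colonic lamina propria and spleen of C57BL/6 mice carrying Cx3cr1gfp/+, in which a green fluorescent protein replaces 1 copy of the fractalkine receptor gene, a genotype that all groups share. There were 8 groups with 1 Affymetrix array each, 4 at steady state and 4 on day 4 of a colitis model with dextran sodium sulphate (DSS), a compound that injures the colonic epithelium. At steady state there were 3 colonic CX3CR1hi groups, the resident macrophages, the monocyte-reconstituted resident macrophages (called reconstituted here) and F4/80hi cells, and Ly6Chi monocytes of the spleen. In colitis the colon gave 1 CX3CR1hi group, of F4/80hi cells, and 2 CX3CR1int groups, which were Ly6Chi and Ly6Clo, and the spleen again gave Ly6Chi monocytes. The label is female for 3 arrays (resident, reconstituted, and splenic at steady state) and male for 5. The labels do not give ages, or how many mice were pooled for an array. All values are log2 probe set intensities, on which 1 unit is a 2-fold difference. Because a probe set's brightness also depends on its probes, levels were compared between arrays for the same gene and not between genes. No group had a replicate, so differences between single arrays are given without a test. Tests were made between 3 populations that pool different groups: 4 CX3CR1hi colonic arrays, 2 CX3CR1int colonic arrays and 2 splenic arrays. Where values are given in a row, the CX3CR1hi arrays come in the order resident, reconstituted, steady-state F4/80hi and colitis F4/80hi, the CX3CR1int arrays as Ly6Clo and Ly6Chi, and the splenic arrays as steady state and colitis.

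The arrays were close in overall brightness, with medians over all probe sets of 5.77 to 5.87. Macrophage markers averaged 11.76 to 11.99 over 10 genes in the CX3CR1hi arrays, 9.34 to 10.01 in the CX3CR1int arrays and 9.14 to 9.51 in the splenic arrays. Markers of intestinal epithelium were present in the colonic arrays too. Their mean over 16 genes was 10.13 to 11.03 in the CX3CR1hi arrays, highest in the resident one, 8.82 to 9.11 in the CX3CR1int arrays and 5.16 to 5.76 in the splenic arrays. Stromal and muscle markers averaged 6.46 to 7.82, 6.57 to 7.46 and 5.63 to 5.64 over 10 genes in the same order. Pancreatic acinar markers, 5 measured genes, averaged 8.84 in the resident, 8.13 in the colitis F4/80hi and 8.58 in the Ly6Chi array and at most 5.59 in the others. Erythroid markers were below the array median in every array for all 3 genes. The steady-state splenic array, labelled female, held Xist at 10.04 and also the Y-linked Eif2s3y at 10.28, which the other arrays labelled female held at 4.34 and 4.36.

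Respiratory chain genes are known as targets of the transcription factors NRF1, GABP (an ETS factor) and YY1, so the members' promoters were searched for their core letters. The searched letters were GCGCANGCGC for NRF1, CCGGAAG for GABP and other ETS factors, and AAGATGG for YY1, on both strands of the 300 bases that run from 250 before to 50 after the gene start in RefSeq (GRCm38.p6). The first motif matches its own reverse strand in part, so 1 place can count on both strands. Promoters of 77 of the 93 members were found, 82 in all. The NRF1 letters occurred in 21 of them (25.6%), against 4.6% of all 32851 promoters in the table and 10.1% of the 10913 promoters of genes past the brightness filter. The ETS letters occurred in 21 (25.6%, against 8.9% and 17.8%) and the YY1 letters in 10 (12.2%, against 6.3% and 7.2%). At least 1 of the motifs was found in 45 (54.9%), against 18% and 30.8%. By complex that was 20 of 40 promoters for complex I, 7 of 7 for complex II, 3 of 5 for complex III, 3 of 12 for complex IV and 12 of 18 for complex V. The complex II promoters were those of Sdha, Sdhb, Sdhd and the assembly factors Sdhaf1 to Sdhaf4, and Sdhc had no promoter in the search. A match is a description of the letters and not a measured binding site.

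Below are 4 promoters, 5′ to 3′ on the gene's strand, with matches in capitals. Sdha and Sdhd show the motifs in complex II, and Cox7a1 and Ndufaf7 are the members that differed most between cell populations. Sdha lies at chr13:74350191-74350490 on the minus strand, Sdhd at chr9:50603800-50604099 on the minus strand, Cox7a1 at chr7:30183921-30184220 on the plus strand and Ndufaf7 at chr17:78936885-78937184 on the plus strand.
Sdha: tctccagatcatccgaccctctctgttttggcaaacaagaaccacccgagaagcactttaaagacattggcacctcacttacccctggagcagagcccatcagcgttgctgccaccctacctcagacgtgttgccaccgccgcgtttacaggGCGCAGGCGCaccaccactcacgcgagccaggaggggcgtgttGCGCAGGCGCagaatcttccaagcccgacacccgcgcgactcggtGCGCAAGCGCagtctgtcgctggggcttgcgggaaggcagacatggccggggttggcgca
Sdhd: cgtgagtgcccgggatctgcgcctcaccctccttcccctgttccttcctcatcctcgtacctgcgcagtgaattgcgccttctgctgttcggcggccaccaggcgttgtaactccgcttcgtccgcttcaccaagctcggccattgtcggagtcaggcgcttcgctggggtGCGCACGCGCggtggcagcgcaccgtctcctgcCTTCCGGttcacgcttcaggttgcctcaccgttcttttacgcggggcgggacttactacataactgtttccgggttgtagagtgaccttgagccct
Cox7a1: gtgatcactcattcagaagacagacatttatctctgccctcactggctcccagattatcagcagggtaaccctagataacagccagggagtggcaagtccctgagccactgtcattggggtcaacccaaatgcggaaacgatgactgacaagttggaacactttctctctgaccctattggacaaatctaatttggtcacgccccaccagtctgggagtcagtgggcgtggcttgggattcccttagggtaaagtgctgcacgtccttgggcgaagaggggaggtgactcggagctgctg
Ndufaf7: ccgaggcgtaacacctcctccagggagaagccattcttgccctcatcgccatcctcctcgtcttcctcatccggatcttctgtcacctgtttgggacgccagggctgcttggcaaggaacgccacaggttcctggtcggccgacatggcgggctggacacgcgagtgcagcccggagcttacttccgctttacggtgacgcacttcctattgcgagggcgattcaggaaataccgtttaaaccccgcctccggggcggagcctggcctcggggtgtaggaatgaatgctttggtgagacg
The Sdha promoter held 3 NRF1 matches, which began 98, 55 and 10 bases before the start. The Sdhd promoter held 1 NRF1 match, 79 bases before the start, and 1 ETS match on the opposite strand, 46 bases before it. None of the 3 motifs was found in these windows of Cox7a1 and Ndufaf7.

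Nearly all members were expressed. A gene entered the tests if it was at or above the array's median in at least 2 arrays, which 87 of the 93 members (93.5%) and 53.5% of all genes did. In all 8 arrays, 82 members (88.2%) were at or above the median, against 42.1% of all genes. The 6 members that did not pass were Cox4i2, Cox7b2, Cox8b, Cox8c and Ndufa4l2, which are isoforms or relatives known from particular tissues, and the assembly factor Sdhaf4. Their highest value in any array was 5.44, for Sdhaf4 in the resident array.

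The members varied little between arrays compared with other genes. The range from lowest to highest of the 8 arrays had a median of 0.73 over the 87 members and 0.98 over all 10673 genes tested, and 0.86 over the 5296 genes at least as bright as the members' lower quartile. A range of 2-fold or more was seen in 19 members (21.8%), against 48.9% and 40.9%. This was not particular to the members, since 76 mitochondrial ribosomal protein genes had a median range of 0.73, with 22.4% at 2-fold or more. Among the members Cox7a1 had the widest range, 4.1, followed by Ndufaf7 (1.93), Ndufb9 (1.52) and Atp5md (1.45). The narrowest among members past the filter was that of Atp5h, a stalk subunit of the ATP synthase, at 0.36.

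The small differences ran the same way in many members. For each gene the mean over 8 arrays was subtracted, and the median of these centred values was taken over the members of an array. That median was 0.31 in the resident array, 0.18 in the reconstituted, −0.05 in the steady-state F4/80hi and −0.04 in the colitis F4/80hi array. It was −0.23 in the Ly6Clo, −0.1 in the Ly6Chi, −0.07 in the steady-state splenic and 0.01 in the colitis splenic array. Over all genes tested the same medians lay between −0.09 and 0.08. The resident array was thus the high one and the Ly6Clo array the low one: 51 of 87 members (58.6%) had their highest value in the resident array, as did 15.6% of all genes, and 32 (36.8%) had their lowest in the Ly6Clo array, as did 18.1% of all genes. After median centring or repeated quantile normalization the resident array held the highest value of 48 and 55 members, and the Ly6Clo array the lowest of 36 and 33. The resident array also had the highest epithelial marker level, and the resident and reconstituted arrays were both labelled female while both F4/80hi arrays were labelled male. The part of other cells in this order was not tested, and sex cannot be told apart from it.

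By complex, the resident array stood highest in every complex, with medians of 0.28, 0.25, 0.4, 0.41 and 0.27 for complexes I to V. The Ly6Clo array was lowest for complexes I (−0.23), III (−0.41) and IV (−0.32). For complex V the steady-state splenic array was lowest (−0.23) and the Ly6Clo array was at −0.09. For complex II, with 7 genes that include assembly factors, the Ly6Clo array was at 0.06 and the Ly6Chi array was lowest at −0.14. Its 4 subunits were split in the Ly6Clo array, with Sdhd at 0.36, Sdha at 0.06, Sdhc at −0.45 and Sdhb at −0.62. In the Ly6Chi array they lay between −0.19 and −0.11. All 8 complex III members were above their own mean in both the resident and the reconstituted array, and 7 of them were highest in the resident one.

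**Figure D1:**
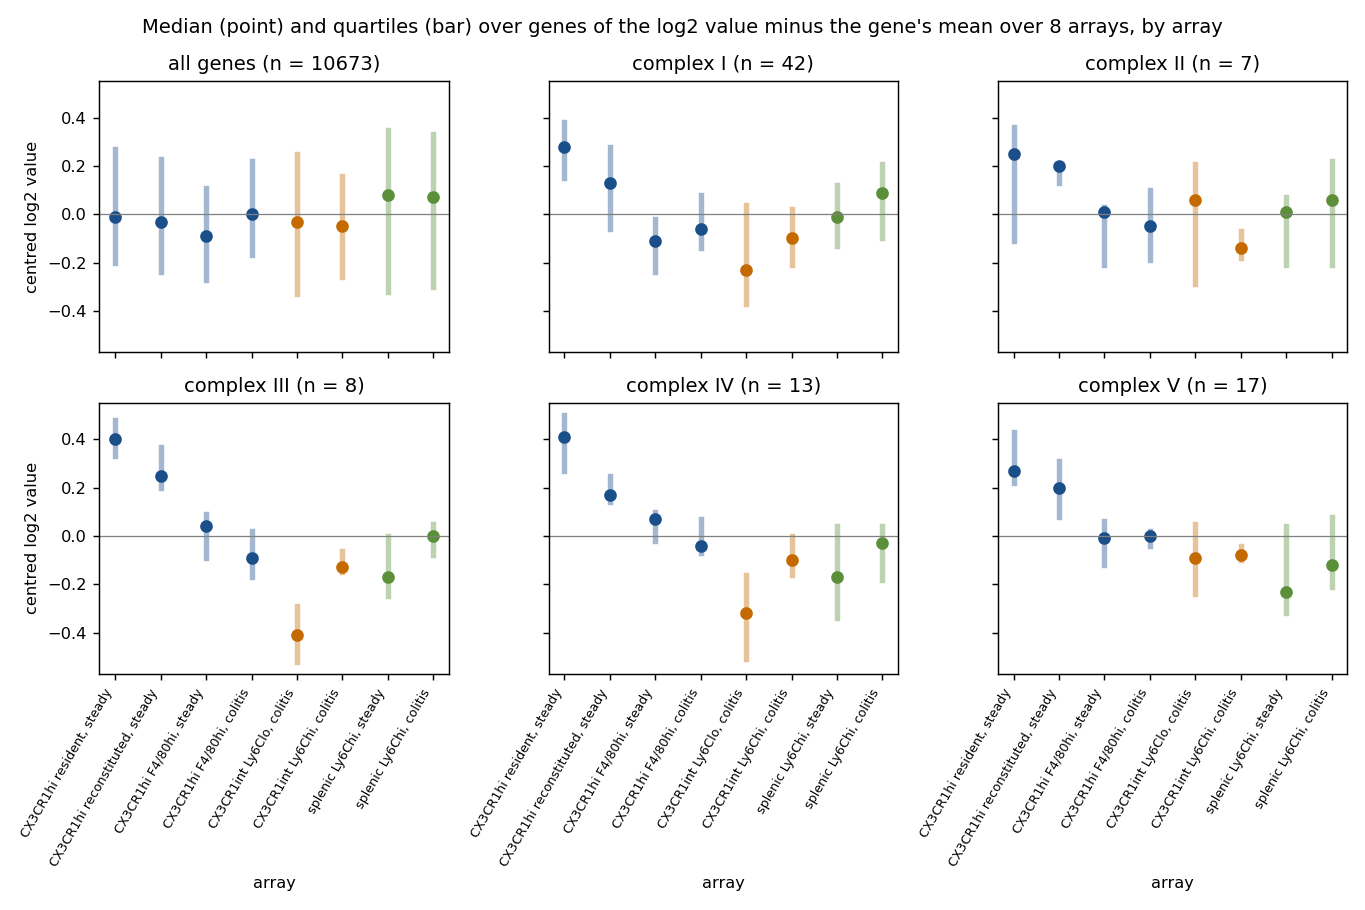
Centred log2 values by array (horizontal axis) for all genes tested and for the members of each complex; points are medians over genes, bars run between quartiles, and colours mark CX3CR1hi (blue), CX3CR1int (orange) and splenic (green) arrays. The resident array is the highest in each complex (0.25 to 0.41), and the Ly6Clo array is the lowest in complexes I, III and IV.

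**Figure D2:**
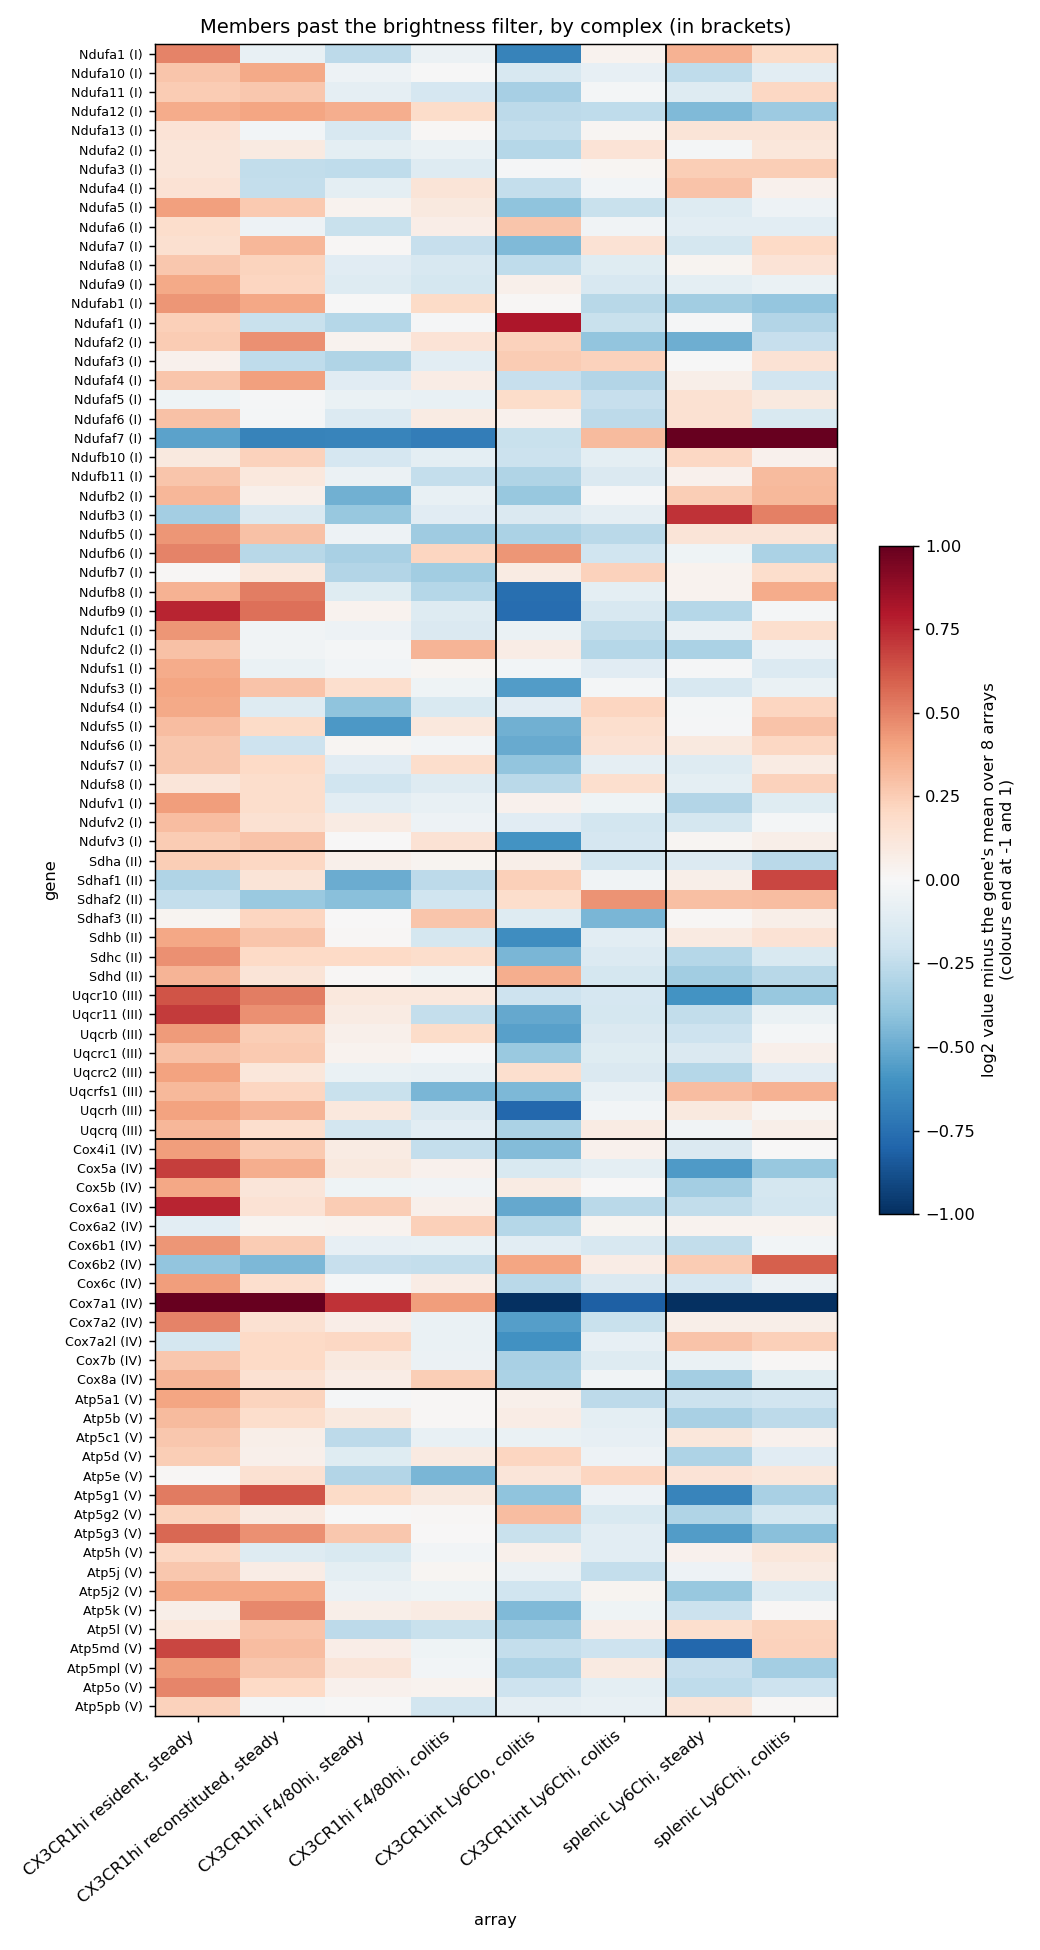
Heat map of the 87 members past the filter (rows, by complex) in the 8 arrays (columns), as log2 value minus the gene's mean over 8 arrays, with colours ending at -1 and 1. The resident column is red for most rows, and Cox7a1, Ndufaf7 and Ndufb3 stand out from the other rows.

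The first population comparison set colonic CX3CR1hi macrophages against splenic monocytes. Of the 87 members, 13 were higher and 5 lower in the CX3CR1hi arrays (n = 4) than in the splenic arrays (n = 2) at an adjusted p under 0.05 (limma, Benjamini-Hochberg over all 10673 genes). Over all genes tested, 22.2% were higher and 29% lower, so 18 of 87 members (20.7%) were called against 51.2% of all genes. The members' median difference was 0.13, against −0.12 for all genes, and 56 were positive. By complex the medians were 0.01 for I, 0.09 for II, 0.24 for III, 0.27 for IV and 0.32 for V. The 7 tested complex II members include assembly factors, and over its 4 subunits alone the median was 0.38, with all 4 positive. The CX3CR1hi arrays all lay above both splenic arrays for 29 members and all below for 7, where 31.5% and 42.8% of all genes did so. The count of higher members rested on both splenic arrays: it was 2 without the steady-state one, the array with the mixed sex signal, and 7 without the colitis one. Calls over all genes fell as well, from 51.2% to 29.7% and 31.4%. In bulk RNA, fewer cells of a type and less RNA per cell cannot be told apart.

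Cox7a1, the isoform of its complex IV subunit known from heart and skeletal muscle, had the largest difference. It stood at 9.76 in the resident, 9.37 in the reconstituted, 8.23 in the steady-state F4/80hi and 7.93 in the colitis F4/80hi array. It was 6.35 in the Ly6Clo and 6.7 in the Ly6Chi array, and 5.67 and 6.07 in the steady-state and colitis splenic arrays. The 3 populations did not overlap, and within the CX3CR1hi arrays the values spread over nearly 2 units. The CX3CR1hi mean was 8.82 ± 0.88 (SD, n = 4), 2.96 above the splenic mean (SE 0.5, 7.77-fold, limma adjusted p = 0.002). It was called higher in all 16 alternative fits, with differences of 2.64 to 3.26. Its steady-state splenic value was below the array median. All 9 tested stromal and muscle markers were also above 0 in this comparison, with a median difference of 1.19, up to 5.21. Of these, 3 were called, against 22.2% of all genes called higher. For 8 of the 9 all CX3CR1hi arrays lay above both splenic arrays, as for 31.5% of all genes. In each splenic array only 3 of the 10 listed markers reached the median. Most thus entered the test through colonic arrays, which favours a positive difference. The epithelial marker mean followed the order of Cox7a1 among the CX3CR1hi arrays (11.03, 10.51, 10.21 and 10.13). The stromal and muscle marker mean did not follow it (7.08, 6.46, 6.98 and 7.82). Between CX3CR1int and CX3CR1hi arrays the median difference of the stromal and muscle markers was 0.04. The part of muscle, stromal or epithelial RNA in the result was not tested. Cox7a2, the widely expressed partner isoform, was 10.32, 9.97, 9.89 and 9.75 in the CX3CR1hi arrays, 9.27 and 9.59 in the CX3CR1int arrays and 9.88 and 9.88 in the splenic arrays, a difference between CX3CR1hi and splenic of 0.1 (SE 0.18, adjusted p = 0.64).

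Ndufaf7, an assembly factor that methylates a core subunit of complex I, moved in the opposite direction. It was 8.05 and 8.03 in the steady-state and colitis splenic arrays, 7.13 in the Ly6Chi and 6.58 in the Ly6Clo array, and 6.27, 6.14, 6.15 and 6.12 in the resident, reconstituted, steady-state F4/80hi and colitis F4/80hi arrays. The splenic arrays were high, the CX3CR1int arrays lay between, and the CX3CR1hi arrays were within 0.15 of each other. The difference of CX3CR1hi from splenic was −1.87 (SE 0.16, 3.65-fold lower, limma adjusted p = 8e-05). It was called in each of the 15 alternative fits that gave it a value.

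In complex I, 3 of 42 members were higher and 3 lower. Ndufa12, an accessory subunit, was 8.64, 8.66 and 8.63 in the resident, reconstituted and steady-state F4/80hi arrays and 8.45 in the colitis F4/80hi array. It was 7.83 and 7.91 in the splenic arrays, a difference of 0.73 (SE 0.11, adjusted p = 0.0012), and it kept its call in all 16 alternative fits. Ndufaf2, an assembly factor related to Ndufa12 in sequence, was higher by 0.58 and lost its call in 11 of 15 alternatives. Ndufab1, the mitochondrial acyl carrier protein, was higher by 0.62 (SE 0.16, adjusted p = 0.013). Ndufb3, a membrane arm subunit, was 6.15, 6.34, 6.11 and 6.37 in the CX3CR1hi arrays, 6.35 and 6.4 in the CX3CR1int arrays and 7.21 and 6.99 in the splenic arrays, with both splenic arrays above the other 6 (CX3CR1hi minus splenic −0.86, SE 0.13, adjusted p = 0.0012). Ndufa3, another accessory subunit, was lower by −0.38 (adjusted p = 0.047). None of the 6 tested core subunits was called by limma, nor did any reach an unadjusted p under 0.05 (0 higher, 0 lower). Ndufv1, which binds NADH, was 9.51, 9.26, 8.98 and 9.01 in the CX3CR1hi arrays, 9.13 and 9.04 in the CX3CR1int arrays and 8.79 and 8.97 in the splenic arrays, a CX3CR1hi minus splenic difference of 0.31 (SE 0.17, adjusted p = 0.16). Ndufs1, which carries iron-sulphur clusters, was 9.42, 8.98, 9.02 and 9.07 in the CX3CR1hi arrays, 9.03 and 8.94 in the CX3CR1int arrays and 9.04 and 8.92 in the splenic arrays, a difference of 0.15 (SE 0.15, adjusted p = 0.42). Ndufa4 carries a complex I name but is known as a subunit of complex IV. It was 8.99, 8.61, 8.75 and 8.98 in the CX3CR1hi arrays, 8.61 and 8.82 in the CX3CR1int arrays and 9.13 and 8.89 in the splenic arrays, with a difference of −0.18 (SE 0.15, adjusted p = 0.36).

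Complex II had 1 subunit and 1 assembly factor past the threshold, in opposite directions. Sdhc, a membrane anchor, was 10.45, 10.19, 10.19 and 10.17 in the CX3CR1hi arrays, 9.54 and 9.85 in the CX3CR1int arrays and 9.71 and 9.84 in the splenic arrays, higher in CX3CR1hi than in splenic cells by 0.48 (SE 0.14, adjusted p = 0.024). Without either splenic array it lost its call. Sdhaf2, which attaches the flavin to Sdha, was 8.53, 8.4, 8.36 and 8.57 in the CX3CR1hi arrays, 8.95 and 9.22 in the CX3CR1int arrays and 9.07 and 9.08 in the splenic arrays. The CX3CR1hi arrays lay below all others (−0.61 against splenic, SE 0.13, adjusted p = 0.0052), and it was called in all 16 alternatives. The other subunits did not pass. Sdha, the flavoprotein that oxidises succinate, was 10.77, 10.73, 10.58 and 10.55 in the CX3CR1hi arrays, 10.58 and 10.34 in the CX3CR1int arrays and 10.39 and 10.25 in the splenic arrays, a difference of 0.34 (SE 0.13, adjusted p = 0.059). Sdhd, the other anchor, was 9.93, 9.72, 9.6 and 9.54 in the CX3CR1hi arrays, 9.95 and 9.41 in the CX3CR1int arrays and 9.24 and 9.31 in the splenic arrays, a difference of 0.42 (SE 0.18, adjusted p = 0.081). Its Ly6Clo value was the highest of the 8, and the CX3CR1hi arrays all lay above both splenic ones. Sdhb, the iron-sulphur subunit, was 10.3, 10.19, 9.92 and 9.74 in the CX3CR1hi arrays, 9.3 and 9.81 in the CX3CR1int arrays and 10 and 10.06 in the splenic arrays, a difference of 0.01 (SE 0.2, adjusted p = 0.98), and its Ly6Clo array was the lowest.

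Complex III had 1 called member of 8. Uqcr10, a small subunit, was 9.23 and 9.12 in the resident and reconstituted arrays, 8.71 in both F4/80hi arrays, and 8.01 and 8.22 in the splenic arrays. It was higher by 0.83 (SE 0.18, adjusted p = 0.0068). Uqcrc1, a core protein, was 10.35, 10.32, 10.09 and 10.05 in the CX3CR1hi arrays, 9.69 and 9.94 in the CX3CR1int arrays and 9.92 and 10.11 in the splenic arrays, a difference of 0.19 (SE 0.14, adjusted p = 0.3). Uqcrfs1, the Rieske iron-sulphur protein, was 7.79, 7.68, 7.25 and 7.01 in the CX3CR1hi arrays, 7.02 and 7.39 in the CX3CR1int arrays and 7.77 and 7.81 in the splenic arrays. It was the only one of the 8 complex III members with a negative difference, −0.36 (SE 0.24, adjusted p = 0.23), and both F4/80hi arrays lay below both splenic arrays.

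In complex IV, 3 of 13 members were higher and 1 was lower. Besides Cox7a1 these were Cox5a, a structural subunit, higher by 0.77 (SE 0.19, adjusted p = 0.011), and Cox8a, the widely expressed isoform, higher by 0.43 (SE 0.14, adjusted p = 0.032). Cox5a was 9.43, 9.11, 8.84 and 8.78 in the CX3CR1hi arrays, 8.59 and 8.64 in the CX3CR1int arrays and 8.17 and 8.36 in the splenic arrays, so that the CX3CR1hi arrays lay above the other 4. Cox6b2, an isoform known from testis, was lower by −0.75 (SE 0.15, adjusted p = 0.0047), but it passed the filter only through the 3 arrays where it was high, both splenic arrays and Ly6Clo, and was below the median in all CX3CR1hi arrays, so its call is a weak one. It was 5.15, 5.1, 5.32 and 5.3 in the CX3CR1hi arrays, 5.94 and 5.62 in the CX3CR1int arrays and 5.8 and 6.14 in the splenic arrays. Cox6b1, its widely expressed partner, was 11.64, 11.45, 11.11 and 11.12 in the CX3CR1hi arrays, 11.09 and 11.04 in the CX3CR1int arrays and 10.95 and 11.17 in the splenic arrays, a difference of 0.27 (SE 0.18, adjusted p = 0.23). Cox6a1, the widely expressed form of another subunit, was 11.07, 10.46, 10.57 and 10.36 in the CX3CR1hi arrays, 9.81 and 10.05 in the CX3CR1int arrays and 10.07 and 10.13 in the splenic arrays, a difference of 0.51 (SE 0.2, adjusted p = 0.067). Its muscle isoform Cox6a2 was 5.64, 5.77, 5.78 and 5.99 in the CX3CR1hi arrays, 5.46 and 5.78 in the CX3CR1int arrays and 5.78 and 5.79 in the splenic arrays, a difference of 0.01 (SE 0.14, adjusted p = 0.95). Cox7b and Cox8a are the expressed partners of Cox7b2, Cox8b and Cox8c, which did not pass the filter. Cox7b was 12.6, 12.53, 12.43 and 12.27 in the CX3CR1hi arrays, 12.01 and 12.2 in the CX3CR1int arrays and 12.26 and 12.34 in the splenic arrays, a difference of 0.16 (SE 0.13, adjusted p = 0.35). Cox4i1, the main isoform of its subunit, was 10.32, 10.17, 9.99 and 9.66 in the CX3CR1hi arrays, 9.47 and 9.95 in the CX3CR1int arrays and 9.76 and 9.91 in the splenic arrays, and did not pass (0.2, SE 0.21, adjusted p = 0.46).

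Complex V had 5 higher members of 17 and 0 lower in the limma fit, against 22.2% and 29% of all genes. At an unadjusted p under 0.05 these were 5 and 0, against 2638 and 3572 of all 10673 genes. Atp5g1, Atp5g2 and Atp5g3 encode the same mature subunit c, the proton-carrying ring, with different import sequences. Atp5g1 was 11.92, 12.02, 11.59 and 11.49 in the CX3CR1hi arrays, 10.99 and 11.34 in the CX3CR1int arrays and 10.74 and 11.07 in the splenic arrays, higher in CX3CR1hi than in splenic cells by 0.85 (SE 0.2, adjusted p = 0.0086). Atp5g3 was 11.27, 11.16, 10.97 and 10.7 in the CX3CR1hi arrays, 10.47 and 10.6 in the CX3CR1int arrays and 10.14 and 10.28 in the splenic arrays, higher by 0.82 (SE 0.17, adjusted p = 0.0052). Atp5g2 was 11.57, 11.45, 11.35 and 11.37 in the CX3CR1hi arrays, 11.66 and 11.2 in the CX3CR1int arrays and 11.06 and 11.18 in the splenic arrays, with its highest value in the Ly6Clo array, and its difference of 0.32 did not pass (adjusted p = 0.12). Whether the 3 genes differ from each other in this respect was not tested. Atp5b, the catalytic beta subunit, was 12.34, 12.21, 12.13 and 12.04 in the CX3CR1hi arrays, 12.1 and 11.93 in the CX3CR1int arrays and 11.71 and 11.77 in the splenic arrays, higher by 0.44 (SE 0.12, adjusted p = 0.019), Atp5mpl, a small membrane subunit, by 0.48 and Atp5o, which links the stalk to the catalytic head, by 0.42. Atp5g1 and Atp5g3 lost their calls without the steady-state splenic array only, with adjusted p = 0.091 and 0.056, and Atp5b lost its call without either splenic array. Atp5mpl and Atp5o were called in only 9 of 16 alternatives, with adjusted p up to 0.22 and 0.21.

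**Figure D3:**
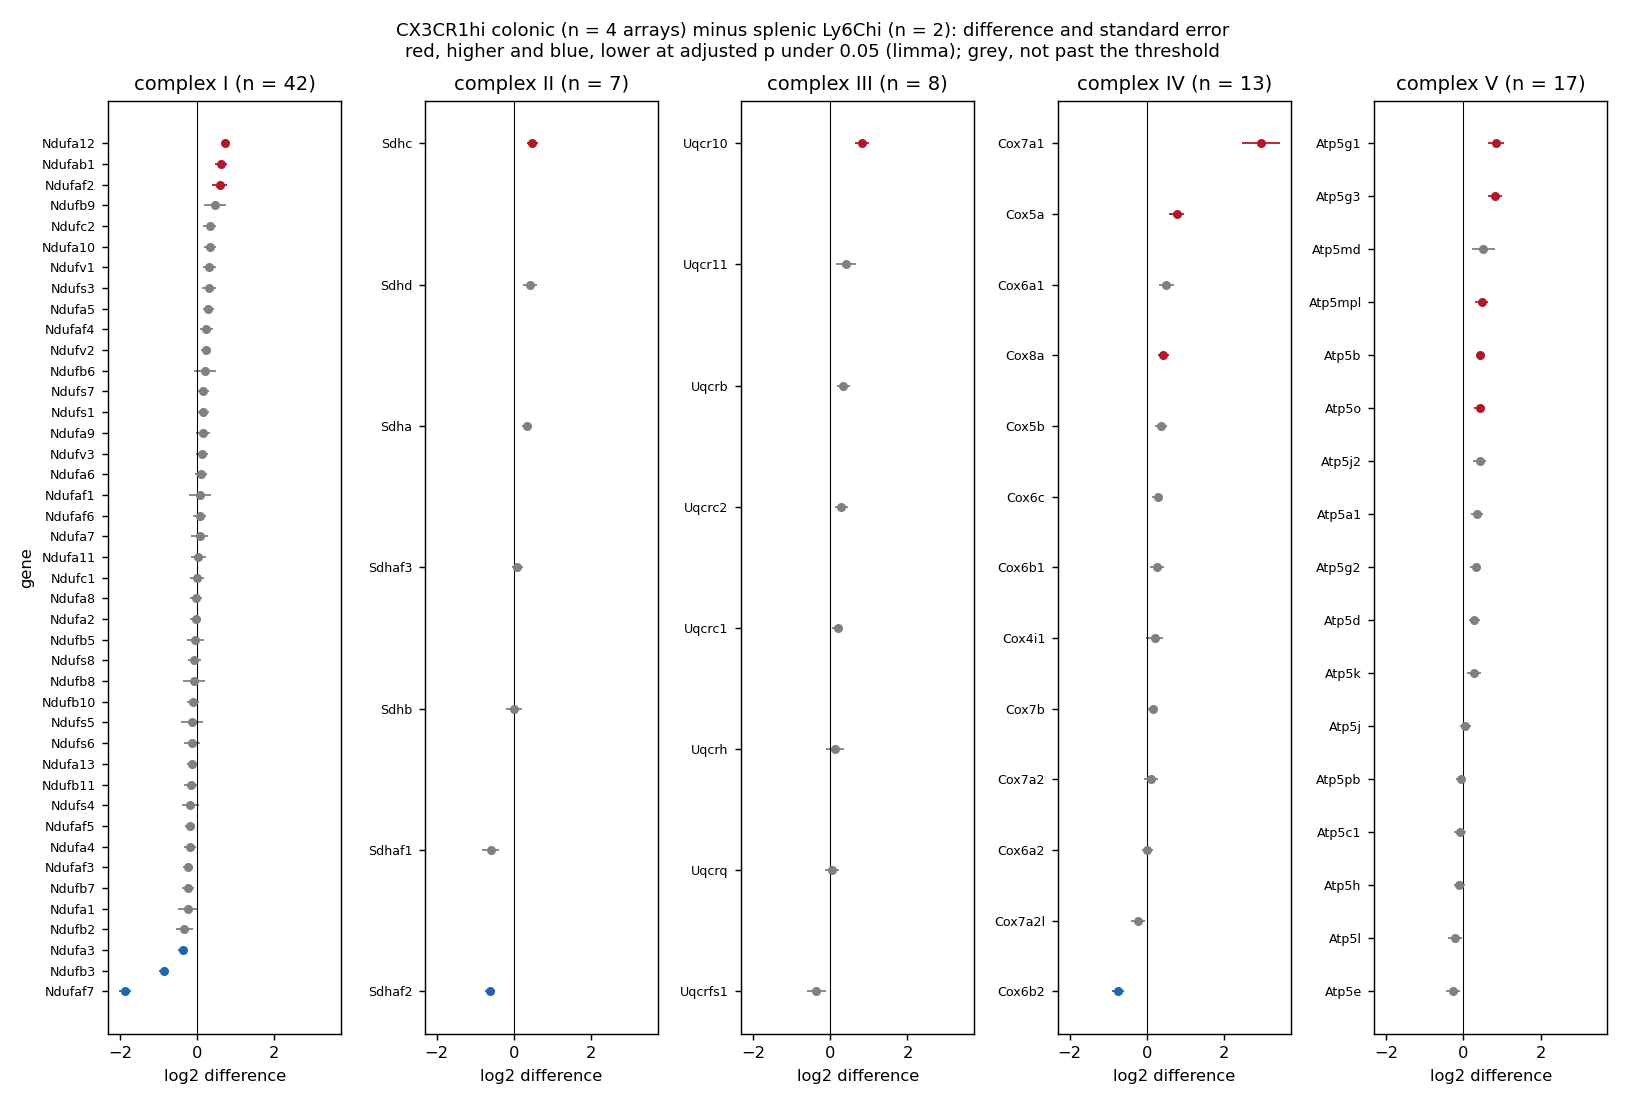
Difference between the CX3CR1hi and splenic population means (log2, horizontal axis) with its standard error for each of the 87 members, by complex, with red for higher, blue for lower and grey for not past the threshold. Most members lie within 1 unit of 0; Cox7a1 (2.96) and Ndufaf7 (-1.87) lie outside.

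The second comparison set the CX3CR1int cells of the inflamed colon against the CX3CR1hi macrophages. Of the 87 members, 3 were higher and 7 lower in the CX3CR1int arrays, against 13.3% and 16.6% of all genes. The members' median was −0.24, with 72 negative, against 0.01 for all genes. Medians by complex were −0.18, −0.2, −0.46, −0.37 and −0.21 from I to V. Over the 4 complex II subunits without the assembly factors the median was −0.34, with all 4 negative. Both CX3CR1int arrays came from colitis and were labelled male. The CX3CR1hi arrays were mostly from steady state, and the resident and reconstituted ones were labelled female. With the sex label as a block the members' median was −0.16. The block took the steady-state splenic array as female, as labelled, although that array held Y-linked RNA. Against the colitis CX3CR1hi array alone, also labelled male, it was −0.17 in the Ly6Clo and −0.08 in the Ly6Chi array. The part of colitis in the shift was not tested. The lower members were Cox7a1 (−2.3, SE 0.5, adjusted p = 0.013), Cox6a1 (−0.69), Ndufa12 (−0.59), Uqcrb (−0.57), Sdhc (−0.55), Ndufv3 (−0.55) and Ndufa5 (−0.51). The 3 higher ones were Ndufaf7 (0.69, SE 0.16, adjusted p = 0.016), Sdhaf2 (0.62, SE 0.13, adjusted p = 0.011) and Cox6b2 (0.56, adjusted p = 0.029). Cox6b2 was below the array median in the CX3CR1hi and Ly6Chi arrays and entered the test through the splenic and Ly6Clo arrays. This comparison shares the CX3CR1hi arrays with the first one. Cox7a1 lost its call without the Ly6Clo array (adjusted p = 0.055). Cox6a1, Uqcrb and Ndufv3 were each called in only 8 of 16 alternatives, and Ndufa5 in 8 of 15. Without the Ly6Clo array the members' median was −0.21 and without the Ly6Chi array −0.31, against −0.01 and 0.01 for all genes. The count of lower members was 7 in the fit of all 8 arrays. It was 4 without the resident array, 3 without the reconstituted, and 3 without either splenic array. It was 2, Cox7a1 and Ndufa12, with the sex label as a block. Calls over all genes fell as well, from 29.9% to 23.2% without the resident array, 23.1% without the reconstituted and 18.7% with the block. Ndufa12 was 8 in the Ly6Clo and 8.01 in the Ly6Chi array, below all 4 CX3CR1hi arrays, and kept its call in all 16 alternatives. None of the 17 complex V members was called in this limma fit, while 0 were higher and 2 lower at an unadjusted p under 0.05.

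The third comparison set the 2 CX3CR1int arrays against the 2 splenic arrays. None of the members was higher and 2 were lower, against 10.2% and 14.2% of all genes. At an unadjusted p under 0.05 in the same limma fit, 0 were higher and 4 lower. The lower ones were Ndufaf7 (−1.18, SE 0.18, adjusted p = 0.0044) and Ndufb3 (−0.73, SE 0.15, adjusted p = 0.013), at 6.35 and 6.4 in the Ly6Clo and Ly6Chi arrays. Without the steady-state splenic array Ndufb3 lost its call. The members' median was −0.13, against −0.08 for all genes. Without the Ly6Chi array these medians were −0.16 and −0.06.

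**Figure D4:**
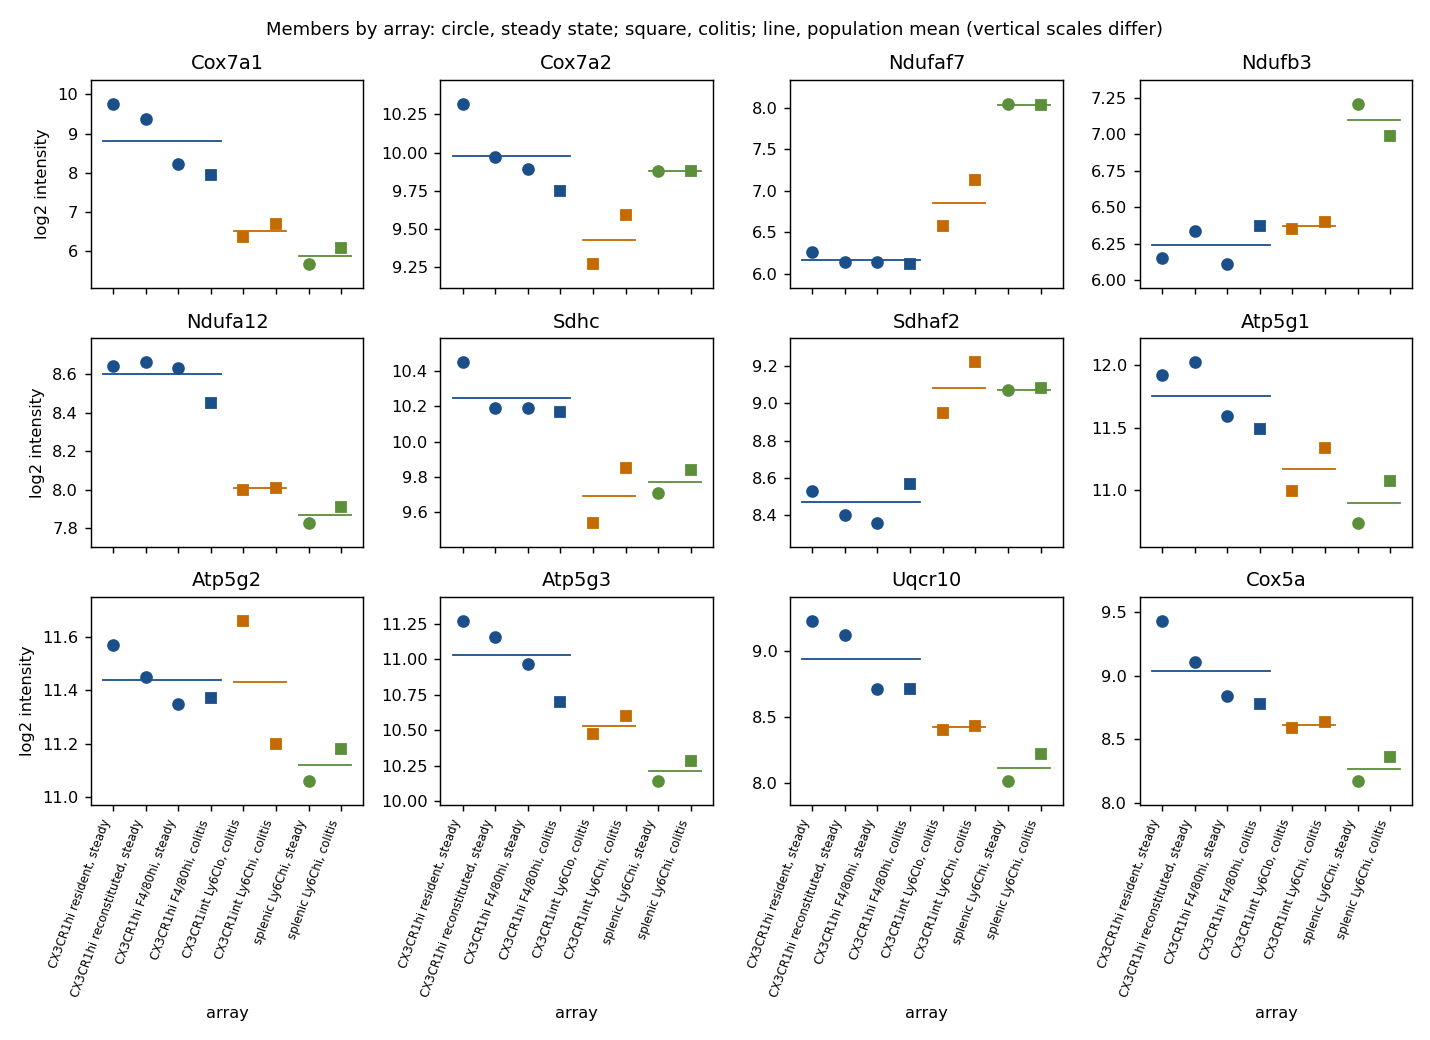
Log2 intensity (vertical axis, scales differ) of 12 members in the 8 arrays, with circles for steady state, squares for colitis and a line at each population's mean. Cox7a1 descends from 9.76 in the resident array to 5.67 in a splenic one, Ndufaf7 is near 8 in both splenic arrays and near 6 in the CX3CR1hi arrays, and Cox7a2 overlaps between these 2 populations.

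Pairs of arrays with the same sex label allow 2 comparisons of colonic with splenic cells that share no array, without a test. The match by label is not borne out for the steady-state pair, since the splenic array held Eif2s3y at 10.28, Uty at 8.46 and Kdm5d at 8.38, all Y-linked, and the resident array held them at 4.36, 4.27 and 4.98. Genes were kept for a pair when their higher value reached that array's median, and a log2 difference of 1 or more counted as 2-fold. Between the steady-state resident and splenic arrays, both labelled female, the members' median was 0.38, against −0.11 for all genes. Of 87 members, 10 were 2-fold apart (8 higher and 2 lower in resident cells), as were 28.4% of all genes. The higher ones were Cox7a1 (4.1), Atp5md (1.45), Cox5a (1.26), Uqcr10 (1.22), Atp5g1 (1.18), Atp5g3 (1.14), Ndufb9 (1.04) and Cox6a1 (1.01). The lower ones were Ndufaf7 (−1.77) and Ndufb3 (−1.06). Between the colitis F4/80hi and splenic arrays, both labelled male, only Cox7a1 (1.86) and Ndufaf7 (−1.91) were 2-fold apart of 86 members, against 24% of all genes. The members' median was −0.06, against −0.09 for all genes. Over the 86 members in both pairs, 38 were higher in both, 12 lower in both and 36 had opposite signs, whereas 1342 of 10306 genes had opposite signs. Ndufaf7 thus had nearly the same difference in both pairs, and Cox7a1 differed less in the second.

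Within the colonic macrophages, the members separated the arrays little. From the resident to the steady-state F4/80hi array, 83 of 86 members were lower, with a median of −0.36 against −0.11 for all genes, but only Cox7a1 (−1.53) passed 2-fold, where 3.64% of all genes did. All 42 complex I and all 8 complex III members were lower. These arrays carry different sex labels. Between the reconstituted and resident arrays, both labelled female, 0 of 85 members passed 2-fold, against 1.76% of all genes. The members' median was −0.15, with 64 lower, against −0.04 for all genes.

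Colitis was compared within a cell type from single arrays. In F4/80hi cells 0 of 85 members were 2-fold apart between colitis and steady state, against 1.47% of all genes. The members' median was 0.01, with 45 higher and 40 lower. Over all genes it was 0.1, with 6969 of 10269 higher. The steady-state array was labelled male like the colitis one. In splenic monocytes, where the labels differ in sex, the members' median was 0.1, against −0.01 for all genes. There 1 of 86 members was 2-fold higher in colitis, against 0.708% of all genes. That member was Atp5md, a small ATP synthase subunit, at 11.17 in the steady-state and 12.19 in the colitis splenic array. Its difference of 1.02 was at the limit, and it fell short of 2-fold with the mean of its probe sets or after median centring.

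Among the colitis arrays, Ly6Clo and Ly6Chi cells differed at 12% of all genes but at 1 of 85 members, Ndufaf1, an assembly factor of complex I, at 7.83 in Ly6Clo and 6.79 in Ly6Chi cells (1.03). The members' median was −0.13 and was −0.36 for complex III, 0.25 for complex II with its assembly factors, and −0.03 for complex V. Ndufaf1 lay between 6.73 and 7.26 in the other 6 arrays, so the Ly6Clo array alone was high.

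Set against the colitis splenic array, the Ly6Clo array had 3 of 85 members past 2-fold, against 22.5% of all genes. They were Ndufaf1 (1.1), Ndufaf7 (−1.45) and Ndufb8, a membrane arm subunit of complex I, at 7.71 against 8.83 (−1.13). The Ly6Chi array had 0 of 85, against 13.7% of all genes, with a median absolute difference of 0.14 over the members and 0.35 over all genes. Against the colitis F4/80hi array, 2 of 85 members passed in the Ly6Chi array, Cox7a1 (−1.23) and Ndufaf7 (1.01), against 14.4% of all genes. In the Ly6Clo array 1 of 86 passed, Cox7a1 (−1.58), against 19.1%. The members' median against the colitis F4/80hi array was −0.08 in the Ly6Chi array, with 36 higher and 49 lower. In the Ly6Clo array it was −0.17, with 30 higher and 56 lower. Over all genes these medians were −0.05 and −0.01. By complex from I to V they were 0.02, −0.13, 0, −0.15 and −0.11 in the Ly6Chi array. In the Ly6Clo array they were −0.14, 0.04, −0.29, −0.35 and −0.07.

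Other mitochondrial genes were read from lists of the chain's partners and regulators. Of 17 carriers, import and chaperone genes, 4 were higher and 2 lower in CX3CR1hi than in splenic cells (median 0.02), and of 33 respiratory chain partners and assembly genes 1 was higher and 7 were lower (median −0.15). Over all genes 22.2% were higher and 29% lower, so neither list had a larger share of lower genes. The higher one was Cyc1, cytochrome c1 of complex III (0.66, adjusted p = 0.026). The lower ones included Foxred1 (−0.82) and Taco1 (−0.65), which are needed to make complexes I and IV. In CX3CR1int against CX3CR1hi cells Cyc1 was lower by −0.76 (adjusted p = 0.026). Cytochrome c itself (Cycs) was 11.53 to 12.02 in all arrays and did not pass (0.03, adjusted p = 0.91).

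Of 76 mitochondrial ribosomal protein genes, 3 were higher and 23 lower in CX3CR1hi than in splenic cells, where 22.2% and 29% of all genes were, so the lower count was near the share over all genes. Their median was −0.25, against −0.12 for all genes. Mrps6 was higher (1.72, adjusted p = 0.002) and Mrpl33 lower (−2.05, adjusted p = 0.0004). Their centred median was highest in the splenic arrays, 0.14 and 0.17, and 0.05 in the resident array. Of 17 TCA cycle genes, 6 were higher and 0 lower in the limma fit, against 22.2% and 29% of all genes. At an unadjusted p under 0.05 these were 7 and 0, against 2638 and 3572 of all 10673 genes. Among them, Idh2, the NADP-dependent isocitrate dehydrogenase, was 9.92 to 10.34 in the CX3CR1hi arrays and 8.76 and 8.97 in the splenic arrays (1.28, adjusted p = 0.00033). Suclg2, a subunit of the succinyl-CoA ligase that yields succinate, was higher by 1.58 (adjusted p = 0.00097).

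Of 15 regulators of mitochondrial biogenesis, 2 were higher and 6 lower, so 53.3% were called, near the 51.2% of all genes. Both higher ones were coactivators known to drive respiratory chain genes. Ppargc1a was 9.18 in the resident, 8.7 in the reconstituted, 7.9 in the steady-state F4/80hi and 7.72 in the colitis F4/80hi array, 6.47 and 6.59 in the Ly6Clo and Ly6Chi arrays, and 4.78 and 4.97 in the splenic arrays. The order of the colonic CX3CR1hi arrays was that of Cox7a1, and the populations did not overlap (adjusted p = 0.00028). Both splenic values were below the array median, so the measured difference of 3.5 rests on values that dim. Ppargc1b was 6.9 to 7.72 in the CX3CR1hi arrays, 5.7 and 6.19 in the CX3CR1int arrays and 5.64 and 5.79 in the splenic arrays (1.56, adjusted p = 0.0017), and was below the median in the splenic and Ly6Clo arrays. The epithelial marker mean had the same order over the CX3CR1hi arrays as Ppargc1a, and its part in these differences was not tested. The lower ones included Nrf1 (−0.59, adjusted p = 0.0087) and Gabpa (−0.38, adjusted p = 0.018), whose motifs were among those searched above. Tfam, which packages mitochondrial DNA, was lower too (−1.19, adjusted p = 0.0035).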

How the data were processed

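Biotin-labelled total RNA was measured on Affymetrix arrays, per the labels' protocols. The deposited log2 values (3.37 to 14.31, 35399 probe sets) were made by the authors with RMA and Partek, per the submitters' processing notes; versions and settings are not given in the sources used here. By the platform annotation 21789 probe sets had 1 gene symbol, 1621 several and 11989 none; 6 with several carried a member's prefix and were left out. The members had 119 probe sets, and 18 members had more than 1.

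Populations were compared with limma 3.58.1 in R 4.3.3 (lmFit, eBayes) in 1 fit of all 8 arrays over the 10673 genes past the filter, with Benjamini-Hochberg adjustment at 0.05, after a check on simulated data. The p-values measure the spread between these arrays, which the labels do not tie to separate mice, and the number of arrays limits the precision. Motifs were searched in Python 3.11.15.

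Full values were given for the 3 largest called differences each way per population comparison, the 2 largest each way past 2-fold per array pair, fixed representatives of each complex and isoform pairs. The members, lists, comparisons and this rule were chosen with earlier results of these data known. Alternatives were other brightness filters, averaging probe sets, median centring, repeated quantile normalization, a block for the sex label, a fit of the compared arrays alone, a trended robust prior, a minimum fold and omission of each array.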

Additional observations from a re-analysis of the deposited data

Results flagged for a closer look

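Among the 4 CX3CR1hi arrays, 42 values were tested for a sample far from the others, and 2 stood apart. Chance gives about 1 in 20, so this count was near that of chance. The 4 arrays are different groups and not replicates, so the test cannot tell a stray array from a group difference. For Ndufa12 the colitis F4/80hi array (8.45) was below the other 3 (8.63 to 8.66), and this gap was 0.872 of the whole range. For Sdhc the resident array (10.45) was above the other 3 (10.17 to 10.19), and the gap was 0.916 of the range. Both exceeded the critical value of the Dixon test for 4 samples.

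The median difference of colitis from steady state had opposite signs in F4/80hi cells and in splenic monocytes for 3 complexes. For complex II it was −0.02 in F4/80hi cells and 0.06 in splenic cells. For complex III it was −0.03 and 0.18, and for complex IV −0.1 and 0.16. Over all genes it was 0.1 in F4/80hi and −0.01 in splenic cells, so opposite signs were not particular to these complexes. With 1 array on each side the difference between the cell types was not tested, and the splenic pair differs in its sex label.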

How the results depend on the processing

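Of 157 alternative values for the 17 counts, 127 lay within 1.5 times the count reported. For CX3CR1hi against splenic cells, higher members (13) ranged from 2 to 16 and lower members (5) from 3 to 5 when 1 array was left out. Lower members were 2 with the filter at the 75th percentile. A 2-fold minimum left 1 higher and 1 lower member. For CX3CR1int against CX3CR1hi cells, lower members (7) ranged from 2 to 15 with 1 array left out, were 13 after repeated quantile normalization, 2 with the sex label as a block, 3 with the compared arrays alone and 1 with a 2-fold minimum, which left 0 of the 3 higher members; with 1 array left out these ranged from 2 to 4. For CX3CR1int against splenic cells, higher members ranged from 0 to 3 and lower members (2) from 1 to 7 with 1 array left out; lower members were 0 with the 75th percentile filter, 0 with the compared arrays alone and 1 with a 2-fold minimum. Over all genes, repeated quantile normalization moved the share of calls that were higher from 41.8% to 48.5% in this comparison and from 43.4% to 50.6% in the first, and median centring moved it from 41.8% to 33.6%; the compared arrays alone gave 62.5%.

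For pairs of arrays, the filter at the 75th percentile left each difference unchanged and dropped genes whose brighter value was below that level. It left 0 instead of 1 member for Ly6Clo against Ly6Chi and 0 instead of 2 for F4/80hi against splenic in colitis. For Ly6Clo against splenic 1 instead of 3 remained. Against F4/80hi 0 instead of 2 remained for Ly6Chi and 0 instead of 1 for Ly6Clo. Colitis against steady splenic cells gave 0 instead of 1 with the mean of probe sets and after median centring. No paired analysis was possible because the labels give no replicate numbers that groups share. Among the alternatives run, no called member's difference changed sign, and the causes of the other changes were not tested. With 1 array per group, spread within a group was not measured, and members near the array median carry little signal over background.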
